A study of Mus musculus with 6 samples.

Results

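The genes described are 36 factors of ribosome production whose symbols begin with Utp, Nop, Rrp, Noc or Nol followed by a number. They are 36 of 52459 rows of the count table. The symbol pattern matched 40 rows, of which Nol3, Nol4, Nol4l and the pseudogene Utp14b-ps1 were left out. The families hold 10 Utp, 8 Nop, 8 Rrp, 3 Noc and 7 Nol genes, and all 36 are annotated as protein coding. All members passed the filter on low counts, with between 82 and 6914 reads per member and library.

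RNA came from liver tumours (hepatocellular carcinoma, HCC) of MYC-LAP-tTA mice, in which a transactivator under a liver promoter drives a MYC transgene that can be switched off. In 3 samples MYC had been inactivated for 4 days (MYC-Off Day 4) and in 3 MYC was active (MYC-On). Both groups carry the same transgenes, and the labels name neither the agent used to inactivate MYC nor the age or sex of the animals. Nothing in the labels ties a sample to an animal of its own. The p-values therefore reflect the scatter among these 6 libraries, part of which may be technical.

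Ribosomes are built in the nucleolus from a long precursor RNA that is folded, modified and cut around many transient proteins. Utp proteins belong mainly to the small subunit (SSU) processome, which assembles with the U3 small nucleolar RNA and releases the precursor of the 40S subunit. Nop, Rrp, Noc and Nol proteins act in the same particle, in precursors of the 60S subunit, or in small nucleolar ribonucleoproteins (snoRNPs) that guide chemical modification of ribosomal RNA. Genes of this pathway are among the best known targets of MYC. By the particle on which each is known to act, largely from yeast, 21 members were taken as 40S factors, 12 as 60S factors and 3 as snoRNP proteins.

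Libraries held 16292718 to 19265623 assigned reads. Levels are given as CPM, reads scaled to a common library size by the TMM method, and tests compare the groups with edgeR's quasi-likelihood test and Benjamini-Hochberg adjustment over all tested genes. Myc reads, which may come from the transgene or the mouse gene, stood at 74.8, 10.2 and 18.7 CPM in MYC-Off Day 4 replicates 1, 2 and 3, against 779, 1018 and 854 CPM in MYC-On replicates 1, 2 and 3. Markers of several cell types differed between the groups. Summed hepatocyte markers ranged from 79142 to 240487 CPM in MYC-Off Day 4 and from 2602 to 6083 CPM in MYC-On, and all 8 were higher. Summed macrophage markers ranged from 2107 to 7987 CPM in MYC-Off Day 4 and from 582 to 1142 CPM in MYC-On, with 8 of 8 higher. Endothelial markers summed to between 267 and 536 CPM in MYC-Off Day 4 and between 49.0 and 57.1 CPM in MYC-On, with 4 of 5 tested higher. Stellate and fibroblast markers summed to between 1001 and 2269 CPM in MYC-Off Day 4 and between 140 and 147 CPM in MYC-On, with 6 of 7 tested higher. T and NK cell markers (5 of 6 tested higher) summed to between 4.99 and 183 CPM in MYC-Off Day 4 and between 2.76 and 4.93 CPM in MYC-On. B cell markers (1 of 1 tested higher) summed to between 1.54 and 41.6 CPM in MYC-Off Day 4 and between 0.395 and 0.891 CPM in MYC-On, and neutrophil markers (4 of 4 tested higher) to between 87.9 and 140 CPM in MYC-Off Day 4 and between 0.696 and 1.87 CPM in MYC-On. No listed marker was at 0 in every library. The part of these markers in the results below was not tested, and in tissue RNA fewer cells of a type and less RNA per cell cannot be told apart.

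Pre-rRNA processing factors fell almost as a whole after 4 days without MYC. Their reads made up 0.126%, 0.0718% and 0.0690% of each MYC-Off Day 4 library, against 0.494%, 0.628% and 0.480% of each MYC-On library. These shares are not scaled, and abundant genes lower them. The 20 most abundant rows took 29.9%, 31.3% and 39.1% of the MYC-Off Day 4 libraries and 16.4%, 11.7% and 19.2% of the MYC-On libraries. With TMM scaling the members differed less, summing to 1118 ± 137 CPM in MYC-Off Day 4 and 4109 ± 460 CPM in MYC-On (SD, n = 3). Of 36 members 34 fell and 0 rose (edgeR, adjusted p under 0.05), while 22.8% of all 14130 tested genes were called lower, 29.9% higher and 52.7% in either direction. No member was higher at an unadjusted p under 0.05 in edgeR, and DESeq2 (35 lower, 0 higher) and limma-voom (34 lower, 0 higher) also called none higher. Against a minimum change of 2-fold, 27 members were lower, beside 10.1% of all tested genes. In 35 of 36 members every MYC-Off Day 4 library lay below every MYC-On library, which held for 29.8% of all tested genes.

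The median log2 fold change (MYC-Off Day 4 minus MYC-On) of the members was -2.05, beside 0.18 for all tested genes. It was -1.87 in the Utp, -2.23 in the Nop, -1.90 in the Rrp, -2.35 in the Noc and -1.96 in the Nol family. The log2 fold change was under -2 in 19 members, between -2 and -1 in 11 and above -1 in 6. All 36 lay below the median of all genes, and 24 were among the 10% of tested genes with the lowest log2 fold changes. The level of all genes depends on the scaling. With library size only, which lowers the median of all genes by 0.74, 36 members were called lower and their median was -2.77. Set against the median of all genes, the members stood at -2.22 with TMM scaling and at -2.21 with library size only. Scaling moves all genes by nearly the same amount, so this match was fixed in advance. The share of called genes that were higher was 56.7% with TMM and 32.3% with library size only.

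**Figure D1:**
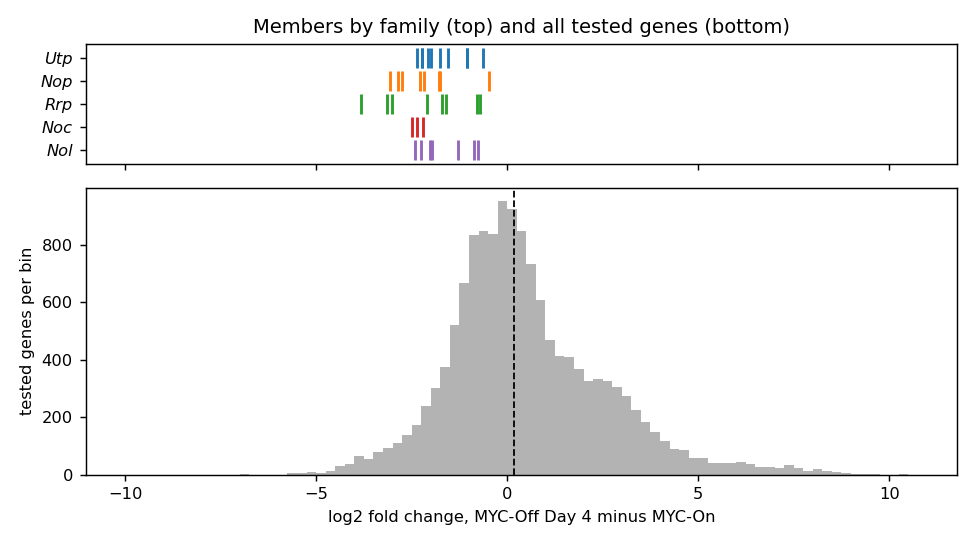
Log2 fold change (MYC-Off Day 4 minus MYC-On) of each member by family (ticks, top) and the number of tested genes per bin of log2 fold change (bars, bottom), with the median of all tested genes (0.18) as a dashed line. All member ticks lie left of the dashed line.

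Sequence around the transcription start was read for the 30 members with a RefSeq promoter window (GRCm38.p6, 250 bases before to 50 after the start, 35 windows). No window was at hand for Nol6, Nop53, Rrp12, Utp11, Utp23 and Utp6. MYC with its partner MAX binds the E-box CACGTG, which reads the same on both strands. It was present in 7 of 35 member windows (20%), beside 7.15% of all 32851 windows and 9.66% of the 13438 windows of tested genes. The related letters CACGCG, searched on both strands, were present in 11 member windows (31.4%), beside 9.27% of all windows and 16.1% of those of tested genes. The motifs differ in 1 letter, so no match of one is a match of the other, and a window may hold both, as those of Utp14b and Rrp7a did. A match is a description of letters, and binding was not measured here.

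The 7 E-boxes are shown with up to 50 bases on each side, 5′ to 3′ on the gene's strand, with CACGTG in capitals, because their places differ from member to member.
Nop2 (chr6:125131773-125131878, plus strand): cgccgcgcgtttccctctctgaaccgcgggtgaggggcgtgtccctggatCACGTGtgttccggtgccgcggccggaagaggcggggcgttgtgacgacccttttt
Nol11 (chr11:107189369-107189474, minus strand): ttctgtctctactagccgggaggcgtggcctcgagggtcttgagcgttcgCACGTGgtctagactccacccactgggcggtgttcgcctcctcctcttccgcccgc
Utp18 (chr11:93885731-93885836, minus strand): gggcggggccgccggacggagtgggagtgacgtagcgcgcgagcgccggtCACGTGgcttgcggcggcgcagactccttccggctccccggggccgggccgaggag
Utp4 (chr8:106893605-106893689, plus strand): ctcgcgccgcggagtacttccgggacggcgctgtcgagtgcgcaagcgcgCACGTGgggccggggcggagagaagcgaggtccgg
Utp20 (chr10:88826765-88826827, minus strand): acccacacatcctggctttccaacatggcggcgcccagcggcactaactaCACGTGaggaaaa
Utp14b (chr1:78658327-78658432, plus strand): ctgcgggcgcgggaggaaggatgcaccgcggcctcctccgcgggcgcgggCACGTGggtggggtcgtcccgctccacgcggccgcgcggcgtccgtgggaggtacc
Rrp7a (chr15:83122954-83123051, minus strand): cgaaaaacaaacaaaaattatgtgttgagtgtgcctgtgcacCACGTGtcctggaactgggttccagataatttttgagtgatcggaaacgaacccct

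Counted from the start site, the first base of the E-box lay at -60 in Nop2, -43 in Nol11, -20 in Utp18, 16 in Utp4, 38 in Utp20, -63 in Utp14b and -208 in Rrp7a. The log2 fold changes of these 7 members ran from -2.85 in Nop2 to -1.04 in Utp14b. The 3 members with the lowest log2 fold changes, Rrp1b, Rrp12 and Nop56, are not among them: the windows of Rrp1b and Nop56 lacked the letters, and Rrp12 had no window.

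The box C/D snoRNP core fell steeply. Nop56 and Nop58 are related proteins that together hold the box C/D guide RNA and the methyltransferase fibrillarin, and snoRNA genes lie inside both of their genes. Nop56 (chr2:130274430-130279313, plus strand) stood at 17.7, 15.1 and 10.4 CPM in MYC-Off Day 4 replicates 1, 2 and 3, against 105, 155 and 106 CPM in MYC-On. The groups did not overlap, and Nop56 fell by 8.45-fold (log2 fold change -3.08, SE 0.30, edgeR adjusted p = 0.00085). Nop58 (chr1:59684971-59719044, plus strand) stood at 48.5, 37.6 and 34.8 CPM in MYC-Off Day 4, against 267, 281 and 274 CPM in MYC-On (log2 fold change -2.77, SE 0.25, edgeR adjusted p = 0.000805). The 3 MYC-On values of Nop58 lay close together, and the highest MYC-Off Day 4 value was far below them. Of 10 snoRNA genes inside members, 5 lie in Nop56, 4 in Nop58 and 1 in Nop53.

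Nop10, the small protein of box H/ACA snoRNPs, which guide pseudouridylation, fell less. It stood at 50.9, 56.5 and 54.2 CPM in MYC-Off Day 4, against 174, 156 and 229 CPM in MYC-On (log2 fold change -1.79, SE 0.24, edgeR adjusted p = 0.00148). Per kilobase of exon it was the most abundant member in both groups, at 48.6 ± 2.54 CPM per kb in MYC-Off Day 4 and 168 ± 34.2 CPM per kb in MYC-On (SD, n = 3).

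All but 1 of the 21 factors of the 40S subunit fell, beside 22.8% of all tested genes called lower. The UtpA complex binds the precursor RNA first and is linked to its transcription. All 3 of its members in the families fell, with a median log2 fold change of -2.23. Utp4, known in humans for a variant that causes a childhood cirrhosis, had the largest estimated fall of the Utp family, within its SE of Utp15 and Utp18. It stood at 32.5, 29.2 and 37.3 CPM in MYC-Off Day 4, against 146, 214 and 144 CPM in MYC-On (log2 fold change -2.35, SE 0.26, edgeR adjusted p = 0.000967). Its groups did not overlap, and replicate 2 was the high library of MYC-On. The UtpA members Utp15 (-2.23, SE 0.30) and Nol11 (-1.96, SE 0.26) also fell. In the UtpB complex, which contacts the 5′ end of the precursor and the U3 RNA, Utp18 changed by -2.22 (SE 0.27) and Utp6 by -1.55 (SE 0.21), and both passed.

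The U3 snoRNP protein Rrp9 and the export factor Rrp12 had the largest falls among 40S factors. Rrp9 averaged 11.5 ± 2.56 CPM in MYC-Off Day 4 and 93.8 ± 14.5 CPM in MYC-On (SD, n = 3), an 8.12-fold lower level (log2 fold change -3.02, SE 0.26). Rrp12, a repeat protein of late 40S precursors, averaged 9.62 ± 1.90 CPM in MYC-Off Day 4 and 85.3 ± 25.8 CPM in MYC-On, an 8.86-fold lower level (log2 fold change -3.15, SE 0.31). Nop14 and Noc4l, which bind each other in the SSU processome, changed by -2.17 (SE 0.21) and -2.49 (SE 0.23) on the log2 scale, and both passed. The yeast UtpC relatives Nol6 and Rrp7a changed by -2.25 (SE 0.25) and -1.60 (SE 0.26) and passed. Nol6 stood at 40.8, 39.2 and 32.9 CPM in MYC-Off Day 4, against 164, 223 and 150 CPM in MYC-On, so its groups did not overlap. Its mean level per kilobase in MYC-On (34.1 ± 7.42 CPM per kb) did not differ beyond the spread from that of Nol7 (34.0 ± 2.08 CPM per kb; SD, n = 3), the next of the Nol family.

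Other SSU proteins that passed were Utp11 (-1.99, SE 0.21), Utp20 (-2.08, SE 0.44), Nop9 (-1.75, SE 0.24) and Nol10 (-1.29, SE 0.26). The large scaffold protein Utp20 was the most uneven of these, with 38.7 CPM in MYC-Off Day 4 replicate 2 against 18.1 and 16.98 CPM in replicates 1 and 3, and 151 CPM in MYC-On replicate 2 against 92.0 and 69.0 CPM in replicates 1 and 3. The SSU protein Utp3 (Sas10 in yeast) had the highest mean level per kilobase of the Utp family in MYC-On, where its libraries overlapped those of Utp4. It stood at 46.6, 41.3 and 35.3 CPM in MYC-Off Day 4, against 84.6, 87.9 and 81.8 CPM in MYC-On (log2 fold change -1.05, SE 0.20, edgeR adjusted p = 0.00498). Its groups did not overlap, but its fall was less than that of 28 other members. Nol7 (-0.86, SE 0.18) and Rrp36 (-0.71, SE 0.22) fell by less than 2-fold. Rrp36 stood at 15.3, 20.4 and 17.9 CPM in MYC-Off Day 4, against 27.3, 31.1 and 29.0 CPM in MYC-On (edgeR adjusted p = 0.0299). Its change was the smallest estimate of its family, within its SE of that of Rrp1 (-0.79).

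Utp23 was the only 40S factor that did not pass edgeR's test. It is a small protein that in yeast helps release an snoRNA from the precursor. It stood at 8.57, 6.89 and 8.60 CPM in MYC-Off Day 4, against 13.6, 13.1 and 10.3 CPM in MYC-On (log2 fold change -0.62, SE 0.28, edgeR adjusted p = 0.103). These levels rest on 156, 90 and 112 reads in MYC-Off Day 4 and 306, 320 and 209 reads in MYC-On, and the groups did not overlap. It passed without MYC-Off Day 4 replicate 1 (log2 fold change -0.82, edgeR adjusted p = 0.0494), with library size only (-1.34, edgeR adjusted p = 0.0192) and by DESeq2 (-0.75, adjusted p = 0.0275). Over all alternatives but the 2-fold minimum its adjusted p ran up to 0.252.

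**Figure D2:**
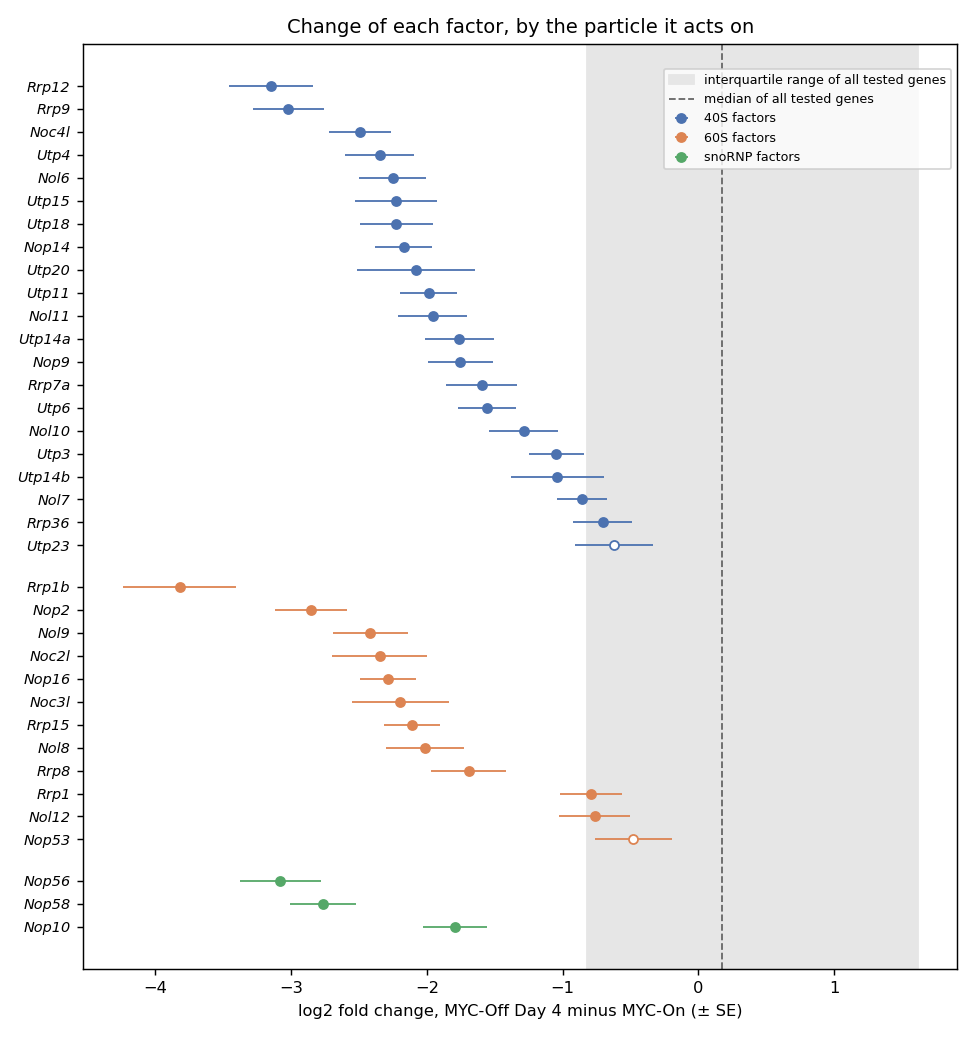
Log2 fold change (MYC-Off Day 4 minus MYC-On, ± SE) of each member, grouped by the particle it acts on. Filled points passed an adjusted p of 0.05, open points (Utp23 and Nop53) did not, the grey band is the interquartile range of all tested genes and the dashed line their median of 0.18.

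Of 12 factors of the 60S subunit 11 fell, beside 22.8% of all tested genes called lower. Nop2, a methyltransferase of the large ribosomal RNA and an old marker of proliferating nucleoli, averaged 31.9 ± 4.98 CPM in MYC-Off Day 4 and 230 ± 45.6 CPM in MYC-On (log2 fold change -2.85, SE 0.27). Rrp8, a methyltransferase of adenosine in the same RNA, changed by -1.69 (SE 0.28) and passed. The early and middle 60S assembly factors Nop16 (-2.29, SE 0.20), Rrp15 (-2.11, SE 0.21) and Nol8 (-2.01, SE 0.29) also fell.

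All 3 genes of the Noc family fell, beside 22.8% of all tested genes called lower. In yeast, Noc proteins form pairs that travel with ribosome precursors, Noc2 with Noc3 for the 60S subunit and Noc4 with Nop14 for the 40S subunit. Noc2l stood at 60.2, 32.9 and 27.7 CPM in MYC-Off Day 4, against 190, 243 and 183 CPM in MYC-On (log2 fold change -2.35, SE 0.35). Noc3l stood at 14.3, 11.7 and 6.30 CPM in MYC-Off Day 4, against 44.9, 63.0 and 40.2 CPM in MYC-On (-2.19, SE 0.36). Noc4l stood at 22.4, 18.0 and 16.4 CPM in MYC-Off Day 4, against 100.1, 120.1 and 99.0 CPM in MYC-On (-2.49, SE 0.23). In each of the 3 genes MYC-Off Day 4 lay below MYC-On without overlap, as in 29.8% of all tested genes. MYC-Off Day 4 replicate 1 was the high library of its group in each, as in 25 of the 36 members.

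The factors for the internal spacer that is cut out of 60S precursors differed in their calls. Nol9, a kinase that phosphorylates RNA ends during removal of this spacer, had the largest estimated fall of the Nol family, within its SE of Nol6 (-2.25). It stood at 27.0, 28.3 and 19.3 CPM in MYC-Off Day 4, against 113, 171 and 114 CPM in MYC-On (log2 fold change -2.42, SE 0.28, edgeR adjusted p = 0.00102). Nop53, which in yeast brings the RNA exosome to the spacer, did not pass. It stood at 175, 94.1 and 115 CPM in MYC-Off Day 4, against 168, 173 and 194 CPM in MYC-On (log2 fold change -0.48, SE 0.29, edgeR adjusted p = 0.193). It was the only member whose groups overlapped, because MYC-Off Day 4 replicate 1 lay among the MYC-On libraries. Without that library it passed (log2 fold change -0.92, edgeR adjusted p = 0.0109), as it did with library size only (-1.14, edgeR adjusted p = 0.0399). Over all alternatives but the 2-fold minimum its adjusted p ran up to 0.366. Nol12, whose yeast relative trims precursor RNA from its 5′ end, stood at 36.8, 23.4 and 41.1 CPM in MYC-Off Day 4, against 51.0, 60.4 and 60.6 CPM in MYC-On (log2 fold change -0.76, SE 0.26, edgeR adjusted p = 0.0415). Its fall was the smallest estimate of the Nol family, within its SE of that of Nol7 (-0.86).

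The calls of Nol12, Rrp1, Rrp36 and Utp14b lay near the threshold (edgeR adjusted p between 0.0221 and 0.0415). All 4 lost their call whichever MYC-On library was left out (edgeR adjusted p between 0.0505 and 0.102). With fewer MYC-On libraries the adjusted p also rose in members far from the threshold. For Nop16 it was 0.000805 with all libraries and between 0.00589 and 0.00708 without a MYC-On library (edgeR). The losses therefore do not show whether a single library carried a call. Nol12 and Utp14b also lost their calls without MYC-Off Day 4 replicate 2 (edgeR adjusted p of 0.0577 and 0.0571). The other 30 called members kept their calls whichever library was left out.

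**Figure D3:**
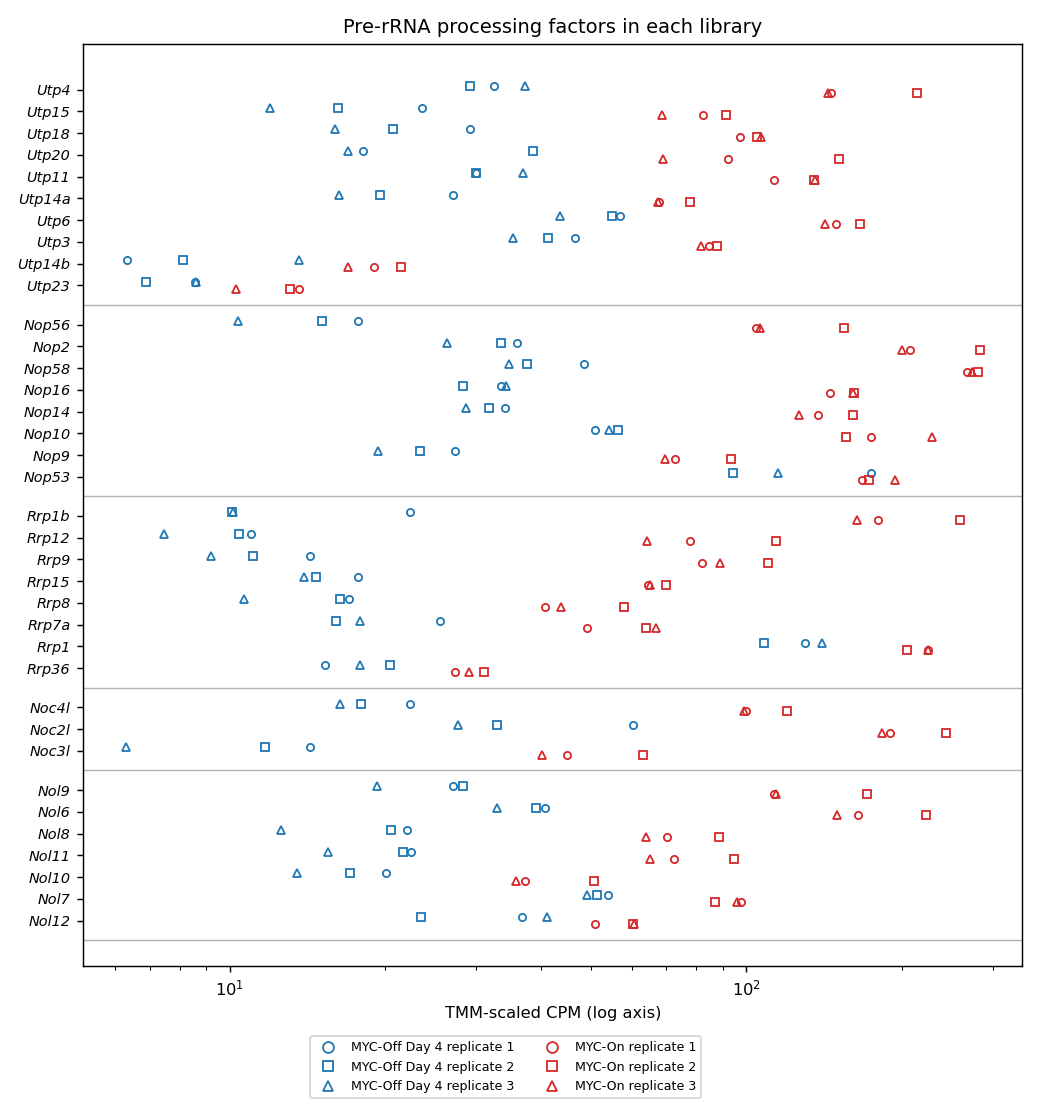
TMM-scaled CPM (log axis) of each member in every library, grouped by family and ordered within a family by log2 fold change. MYC-Off Day 4 points lie left of all MYC-On points except for Nop53, where replicate 1 of MYC-Off Day 4 (175 CPM) lies among the MYC-On libraries (168 to 194 CPM).

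Rrp1 and Rrp1b, a pair of related 60S factors with a single counterpart in yeast, had the largest change in ratio of the 6 related pairs compared. Rrp1b (chr17:32036100-32062865, plus strand) stood at 22.3, 10.1 and 10.1 CPM in MYC-Off Day 4, against 180, 260 and 164 CPM in MYC-On. It was 14.1-fold lower, the largest fall of the 36 members (log2 fold change -3.82, SE 0.42, edgeR adjusted p = 0.000967). Rrp1 (chr10:78400384-78413043, minus strand) stood at 130.1, 108 and 140.1 CPM in MYC-Off Day 4, against 225, 205 and 225 CPM in MYC-On. It was 1.73-fold lower (log2 fold change -0.79, SE 0.23, edgeR adjusted p = 0.0221).

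Both genes were abundant in MYC-On. Within a library, Rrp1b reads per Rrp1 read were 0.171, 0.0933 and 0.0724 in MYC-Off Day 4 and 0.798, 1.27 and 0.727 in MYC-On, a value that does not depend on scaling. The log2 ratio differed by -3.10 (SE 0.44) without overlap between groups. The two-sided exact permutation p was 0.1, the smallest that 3 against 3 libraries can give, and 0.6 after Benjamini-Hochberg adjustment over 6 pairs of related members.

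Their promoter windows are shown because the pair's ratio changed most. RefSeq gives 2 windows for Rrp1b, of which 1 is printed, and neither holds CACGTG or CACGCG. The Rrp1 window lacks CACGTG and holds CACGCG, as CGCGTG on the printed strand (capitals).
Rrp1b (chr17:32035912-32036211, plus strand): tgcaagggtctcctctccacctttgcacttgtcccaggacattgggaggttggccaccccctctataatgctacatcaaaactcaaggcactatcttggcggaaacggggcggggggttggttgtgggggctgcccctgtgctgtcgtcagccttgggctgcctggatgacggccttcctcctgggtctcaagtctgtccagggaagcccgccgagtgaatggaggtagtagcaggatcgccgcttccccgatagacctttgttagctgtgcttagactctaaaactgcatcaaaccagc
Rrp1 (chr10:78412994-78413293, minus strand): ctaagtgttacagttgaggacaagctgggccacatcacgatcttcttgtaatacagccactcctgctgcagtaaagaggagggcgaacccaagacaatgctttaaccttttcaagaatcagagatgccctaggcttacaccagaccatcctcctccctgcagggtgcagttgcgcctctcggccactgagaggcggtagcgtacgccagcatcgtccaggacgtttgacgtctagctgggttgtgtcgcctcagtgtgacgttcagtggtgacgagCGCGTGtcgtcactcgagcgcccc

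Utp14a and Utp14b encode related proteins that activate an RNA helicase of the SSU processome, and Utp14b, known in mice for a role in spermatogenesis, is a retrotransposed copy. Utp14a stood at 27.0, 19.5 and 16.3 CPM in MYC-Off Day 4, against 67.8, 77.9 and 67.4 CPM in MYC-On (log2 fold change -1.76, SE 0.25, edgeR adjusted p = 0.00188). Utp14b stood at 6.32, 8.11 and 13.6 CPM in MYC-Off Day 4, against 19.1, 21.5 and 16.96 CPM in MYC-On (-1.04, SE 0.34, edgeR adjusted p = 0.0372). The copies moved apart among the MYC-Off Day 4 libraries, Utp14a being highest in replicate 1 and Utp14b in replicate 3. Utp14a reads per Utp14b read were 4.28, 2.41 and 1.20 in MYC-Off Day 4 and 3.56, 3.63 and 3.97 in MYC-On (two-sided exact permutation p = 0.4). Exons of Utp14b share 244 bases with Acsl3 on the same strand, and Acsl3 stood at 35.0, 32.8 and 89.2 CPM in MYC-Off Day 4, also highest in replicate 3, against 174, 127 and 145 CPM in MYC-On. The part of Acsl3 reads in the Utp14b values was not tested.

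In the other related members the ratios of the groups overlapped. Nop56 reads per Nop58 read were 0.366, 0.401 and 0.298 in MYC-Off Day 4 and 0.391, 0.550 and 0.388 in MYC-On (two-sided exact permutation p = 0.3). The log2 ratio changed by 0.08 (SE 0.21) for Noc2l over Noc4l, by 0.25 (SE 0.27) for Noc3l over Noc4l and by -0.17 (SE 0.22) for Noc2l over Noc3l, with overlapping groups in all 3.

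**Figure D4:**
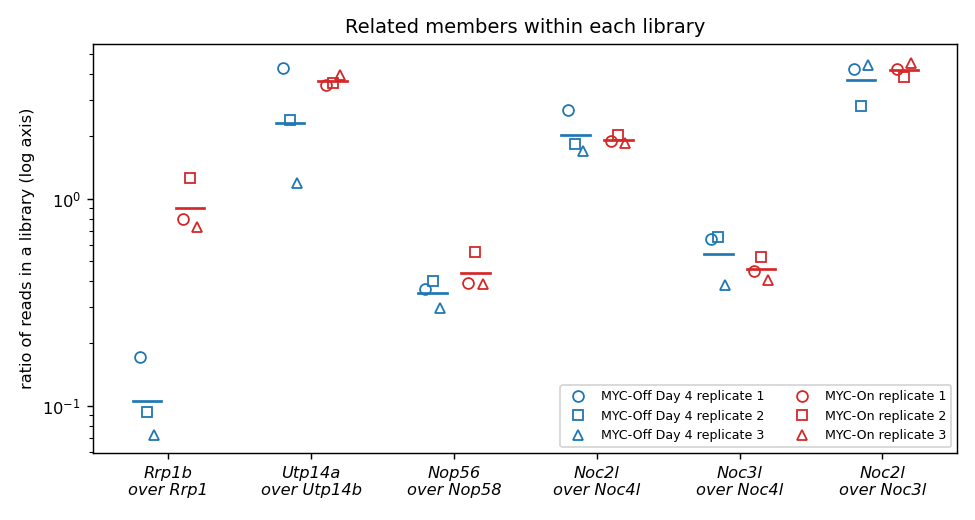
Reads of one member per read of another within each library (log axis), for 6 pairs of related members, with lines at the geometric mean of each group. For Rrp1b over Rrp1 all MYC-Off Day 4 ratios (0.0724 to 0.171) lie below all MYC-On ratios (0.727 to 1.27), and the other pairs overlap.

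Length-scaled levels spread widely among members. They depend on the annotated length, the union of all exons of a gene, which may exceed that of the transcripts present. Nop58, with 10.758 kb, was 20th per kb in MYC-On, although its mean there (274 CPM) was the highest of the members. Utp14b, with 7.679 kb, was below Utp23 per kb but above it in CPM (19.2 against 12.3 CPM in MYC-On). In MYC-On the highest were Nop10 (168 ± 34.2 CPM per kb), Nop16 (84.5 ± 5.11 CPM per kb), Nop2 (83.1 ± 16.5 CPM per kb) and Noc2l (71.6 ± 11.5 CPM per kb), and the lowest were Utp23 (4.13 ± 0.596 CPM per kb) and Utp14b (2.50 ± 0.295 CPM per kb; SD, n = 3). The libraries of Nop16, Nop2 and Noc2l overlapped, so their order does not exceed the spread. In MYC-Off Day 4 Nop10 was followed by Rrp1 (37.8 ± 4.88 CPM per kb), Nop53 (33.3 ± 10.9 CPM per kb), Utp3 (25.2 ± 3.46 CPM per kb) and Nol7 (18.7 ± 0.869 CPM per kb). The libraries of Nop53 overlapped those of Rrp1 and Utp3, and those of Nol7 overlapped those of Nop16, so the order among these neighbours does not exceed the spread. By mean, Rrp1b was 35th of the 36 in MYC-Off Day 4 and 19th in MYC-On.

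**Figure D5:**
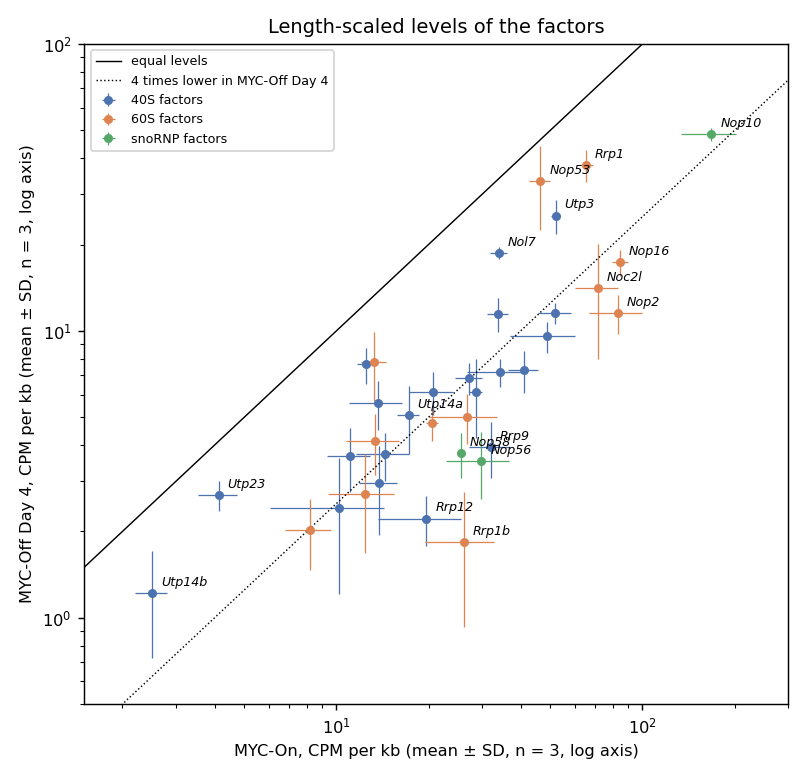
Mean CPM per kb of exon (± SD, n = 3, log axes) of each member in MYC-Off Day 4 (vertical axis) against MYC-On (horizontal axis). The solid line marks equal levels and the dotted line a level 4 times lower in MYC-Off Day 4; Nop53, Rrp1, Utp3 and Nol7 lie nearest the solid line among abundant members, and Rrp1b lies far below the dotted line.

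The MYC-Off Day 4 libraries were not alike. Of 36 members 25 were highest in replicate 1 of that group and 24 were lowest in replicate 3, while 38.7% of all tested genes were highest in replicate 1 and 35.4% lowest in replicate 3. Myc was also highest in replicate 1 (74.8 CPM), as were the macrophage, T and NK cell, B cell, endothelial, and stellate and fibroblast marker sums, while hepatocyte markers were lowest there (79142 CPM). Their part in the members' values was not tested. The median member lay at -1.76, -1.96 and -2.22 (log2 CPM minus the MYC-On mean) in replicates 1, 2 and 3 of MYC-Off Day 4. Among the MYC-On libraries, 27 members were highest in replicate 2, while 41.4% of all tested genes were highest there. That library also had the highest Myc level (1018 CPM) and the lowest hepatocyte marker sum (2602 CPM), whose part was not tested. The median coefficient of variation of members was 19.3% in MYC-Off Day 4 and 14.9% in MYC-On, beside 34.7% and 19.1% for all tested genes.

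Reads of some members can be shared with other genes. Exons of 12 members overlap a gene on the opposite strand, which cannot be told apart without a stated strand setting. The largest overlap is that of Nop9 with Cideb, which covers 29.9% of Nop9 exons and stood higher in MYC-Off Day 4 (44.9 ± 28.8 CPM in MYC-Off Day 4 and 9.58 ± 1.49 CPM in MYC-On). The next are Noc2l with Samd11 (20.9% of exons; 1.27 ± 0.208 CPM in MYC-Off Day 4 and 0.118 ± 0.0179 CPM in MYC-On) and Nol7 with Ranbp9 (16.5% of exons; 41.6 ± 11.3 CPM in MYC-Off Day 4 and 41.5 ± 1.85 CPM in MYC-On). Nop56, Nop53, Rrp7a and Nol8 have annotated processed pseudogenes that match at least 300 bases of their transcripts at 90% identity or more, and their values are uncertain to that extent. The pseudogenes with a row of their own held at most 7 reads in any library. How reads that match both were treated is not stated.

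Other genes of ribosome production also fell, while 22.8% of all 14130 tested genes were called lower. Of 32 other genes of the SSU processome and 40S assembly, all tested, 31 fell and 0 rose, with a median log2 fold change of -1.85. The acetyltransferase Nat10 averaged 21.01 ± 3.60 CPM in MYC-Off Day 4 and 143 ± 23.4 CPM in MYC-On (-2.76, SE 0.24), and the UtpA member Wdr75 averaged 17.4 ± 2.82 CPM in MYC-Off Day 4 and 88.9 ± 12.3 CPM in MYC-On (-2.35, SE 0.23). The exception was Rcl1 (96.2 ± 16.4 CPM in MYC-Off Day 4 and 125 ± 11.9 CPM in MYC-On, log2 fold change -0.38, SE 0.22, edgeR adjusted p = 0.181), whose yeast relative acts at an early cleavage of the precursor.

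Of 42 other 60S assembly genes 41 fell and 0 rose, with a median of -1.98. Ppan averaged 18.8 ± 0.606 CPM in MYC-Off Day 4 and 172 ± 33.2 CPM in MYC-On (-3.19, SE 0.24), and Ebna1bp2 averaged 30.3 ± 5.58 CPM in MYC-Off Day 4 and 162 ± 8.63 CPM in MYC-On (-2.42, SE 0.23). Nsa2 did not pass, at 14.9 ± 7.25 CPM in MYC-Off Day 4 and 14.0 ± 2.33 CPM in MYC-On (log2 fold change 0.10, SE 0.43). All 13 other snoRNP genes fell (median -2.55), with the H/ACA protein Nhp2 at 31.8 ± 9.81 CPM in MYC-Off Day 4 and 296 ± 40.1 CPM in MYC-On (-3.22, SE 0.31) and the assembly ATPase Ruvbl2 at -3.06 (SE 0.28).

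The RNA exosome, which trims the ends of precursor RNAs and many of whose subunits carry Rrp names in yeast, fell in 10 of 13 tested genes and rose in 0 (median -1.77). The nuclease Dis3 averaged 18.5 ± 4.91 CPM in MYC-Off Day 4 and 143 ± 25.3 CPM in MYC-On (-2.95, SE 0.28), and the cap subunit Exosc2 averaged 14.8 ± 2.87 CPM in MYC-Off Day 4 and 98.2 ± 8.19 CPM in MYC-On (-2.72, SE 0.24). Exosc4 (-0.87, SE 0.33, edgeR adjusted p = 0.0579), Exosc9 (-0.47, SE 0.25) and C1d (0.08, SE 0.32) did not pass. In these 4 lists no gene was higher at an unadjusted p under 0.05 in edgeR, nor by DESeq2 or limma-voom.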

How the data were processed

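RNA from frozen liver tumours was sequenced in 6 libraries, 3 per group, grouped by sample title. The deposited table holds whole-number read counts for 52459 gene symbols, which are not normalized. The submitters' processing notes name Trimmomatic, STAR, Picard, featureCounts, DESeq2 and the mm10 build. The sources used here do not give tool versions, the annotation counted, the strand setting or how multi-mapping reads were treated.

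The rows were tested with edgeR 4.0.16 in R 4.3.3 (filterByExpr with a minimum count of 10 and a minimum total of 15, TMM scaling, robust quasi-likelihood test). P-values were adjusted by Benjamini-Hochberg over the 14130 rows that passed, with a threshold of 0.05. Each SE is the log2 fold change over the square root of F. CPM uses TMM-scaled library sizes, and CPM per kb divides it by the union of exons in GENCODE mouse release 21, an annotation on mm10. Copies of members were searched with BLAST 2.17.0. Promoter windows are RefSeq's on GRCm38.p6. The test was also run on simulated counts. Few genes changed there, as many up as down, so that run does not bear on the scaling. Within a group, any pair of libraries differed by more than counting error (chi-square over its degrees of freedom at least 29.1). Same-numbered libraries of the groups did not deviate together (correlations of -0.26, -0.17 and 0.04), and the test has no block.

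The members and lists were chosen with earlier results of these data known. All members may be named. Values in every library are given for the largest change, the smallest change and the highest CPM per kb of each family, for members that did not pass and for related pairs. In each pathway list the genes with the lowest adjusted p are named. Alternatives were other scalings, filters and tools, a replicate block, a minimum change of 2-fold (glmTreat) and leaving out each library.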

Additional observations from a re-analysis of the deposited data

How the results depend on the processing

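The direction of all 36 members was the same under every alternative. Of their values under an alternative, 510 fell on the same side of the threshold, 25 lost the call and 5 gained it. The number of members called lower ran from 30 to 36 and their median log2 fold change from -2.25 to -1.97 when 1 library was left out. The replicate block, for numbers that do not pair the libraries (not every library correlated best with its own number), left 30 members lower and 2611 genes lower and 3152 higher in all. With library size only the members' median was -2.77, with 5300 genes lower and 2527 higher, a shift set by the scaling itself. Against a minimum change of 2-fold 4 Nol members were lower, with 1428 genes lower and 2621 higher. Without a library, the count of all genes called lower ran from 2337 to 3786 and of those higher from 2776 to 4317. The count of higher genes was lowest without MYC-On replicate 2, at 2776. The cause was not tested. What depth limits among the members was not tested.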
